A study of Mus musculus with 2 samples.

Results

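The genes of MHC class II antigen presentation were compared between 2 parts of mouse hair follicles: the bulge, where the follicle's stem cells lie, and the hairshaft. The set held 10 genes chosen by name, and every array feature assigned to 1 of these symbols alone was taken, which gave 19 probe sets for 9 of the 10 genes among 18193 genes on the array. H2-DMb1 had no probe set of its own. A probe set is a group of short probes that together read 1 transcript, and several probe sets can read different stretches of the same gene. Both structures were cut by laser from eosin-stained frozen skin of 21-day-old C57Bl6 mice, and 30 ng of total RNA from each was amplified and hybridised to 1 array. The labels give no treatment or altered gene for either group, and the sources used here do not say how many mice were cut, their sex, the skin site or whether animals were pooled.

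MHC class II molecules carry peptides from material that a cell has taken up, and show them to CD4+ T cells. Each is a pair of an alpha and a beta chain, which assembles in the endoplasmic reticulum with the invariant chain Cd74 as a placeholder in the peptide groove. In lysosome-like compartments proteases trim Cd74, and H2-DM then exchanges its last fragment for a peptide, while H2-O restrains H2-DM. Ciita is the coactivator that switches these genes on, through a shared promoter module bound by the RFX, CREB and NF-Y factors. In resting skin the genes are known mainly from Langerhans cells, the dendritic cells of the epidermis, and from dendritic cells and macrophages of the dermis.

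Stretches of the promoters show what several members share at the sequence level and are the context for the comparisons that follow. The module's X box, the RFX site, was searched by the letters GCAAC and its Y box, the NF-Y site, by GATTGG, each on both strands of windows that reach from 250 bases before to 50 bases after each start (RefSeq, GRCm38.p6). The letters were chosen from the textbook boxes and after these promoters had been read. RefSeq promoters were matched for 6 of the 10 genes; H2-Ab1, H2-Ea, Cd74 and Ciita had no entry. GATTGG was found for 6 of 6 matched genes and GCAAC for 5 of 6, where H2-DMa had them in different windows, one for each of its 2 starts. H2-DMb1 had GATTGG without an exact GCAAC and is printed as well. Ahead of GATTGG its stretch holds gtaac, followed by the same letters (tgatgatgct) as the GCAAC of H2-Eb1. The missing match therefore does not show that H2-DMb1 lacks an X box. GCAAC followed by GATTGG on the gene's strand, with starts 20 to 45 bases apart, was found for 4 of 6, namely H2-Eb1, H2-Aa, H2-Ob and H2-Oa. Of all 32851 promoter windows, 16.1% held GATTGG, 35.2% held GCAAC and 0.228% held the pair on the gene's strand. The 100 bases from 120 to 21 before the start are given below, 5′ to 3′ on the gene's strand. Matches to either motif on that strand are in capitals. A match on the other strand, such as ccaatc in H2-Eb1, stays in lower case. They lie at chr17:34305747-34305846 (plus strand) for H2-Eb1, chr17:34287844-34287943 (minus strand) for H2-Aa, chr17:34238785-34238884 (plus) for H2-Ob, chr17:34092259-34092358 (plus) for H2-Oa and chr17:34153071-34153170 (plus) for H2-DMb1.
H2-Eb1: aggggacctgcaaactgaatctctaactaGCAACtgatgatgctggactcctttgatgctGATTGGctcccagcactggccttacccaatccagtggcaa
H2-Aa: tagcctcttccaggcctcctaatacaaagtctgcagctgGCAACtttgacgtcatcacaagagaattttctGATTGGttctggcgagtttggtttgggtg
H2-Ob: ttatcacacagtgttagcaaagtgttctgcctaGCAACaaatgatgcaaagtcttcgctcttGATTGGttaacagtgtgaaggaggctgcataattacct
H2-Oa: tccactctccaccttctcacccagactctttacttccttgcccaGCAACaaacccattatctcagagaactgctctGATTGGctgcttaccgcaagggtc
H2-DMb1: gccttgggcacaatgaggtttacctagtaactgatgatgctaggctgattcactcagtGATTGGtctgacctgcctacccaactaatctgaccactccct
The pair started 91 and 60 bases before the start of H2-Eb1, 81 and 49 before that of H2-Aa, 87 and 58 before that of H2-Ob, and 76 and 44 before that of H2-Oa. The starts of both motifs were thus 29 to 32 bases apart in these 4 genes. A match is a description of the letters and does not show that a factor binds there.

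All values that follow are log2 GCRMA values, a background-corrected and normalised array signal, and all differences are bulge minus hairshaft on that scale. A value was counted as above the floor when it exceeded 2.70 on the bulge array or 2.69 on the hairshaft array, the 95th percentile of 78 probe sets for smell and pheromone receptors. With 1 array for each structure no spread between replicates exists, no test was possible, and the number of arrays limits the precision. A difference of at least 2-fold is a fixed limit and not a call of significance. The arrays also stood apart in other ways. Of 9 probe sets for the Y-linked genes Eif2s3y, Kdm5d and Uty, 7 were above the floor on the hairshaft array, up to 9.48, and none on the bulge array. Xist, the transcript of the inactive X chromosome, was above the floor on both arrays in all 3 of its probe sets, and the set with the widest gap read 11.06 for the bulge and 8.98 for the hairshaft. The 5 skeletal muscle markers summed to a linear signal of 110220 for the bulge and 36.8 for the hairshaft, and the 4 adipocyte markers to 54904 and 89.7. The 5 endothelial markers also passed 2-fold toward the bulge, while the 4 keratins of the epidermis were under 2-fold apart. Bulge stem cell markers fitted the label of the bulge array, with 6 of 7 past 2-fold toward it. The hair shaft keratins went against the label of the hairshaft array, since 5 of 7 were past 2-fold toward the bulge, and Krt31, Krt33a, Krt35 and Krt86 were below the floor in the hairshaft. Sex-linked signal, muscle and fat content and structure therefore differ together between the arrays, and for each result below they cannot be told apart.

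Of the 9 class II genes measured, 2, H2-Eb1 and H2-Aa, had probe sets many-fold higher in the hairshaft, and the other 7 had no probe set past 2-fold. Of the 19 probe sets, 3 (15.8%) passed 2-fold toward the hairshaft, 0 passed it toward the bulge, and 16 (84.2%) did not pass it, of which 2 sets of Ciita give only a lower bound. Among all 28555 probe sets above the floor on at least 1 array, 7.39% passed 2-fold toward the hairshaft and 9.55% toward the bulge. The other 83.1% were under 2-fold apart. Of the 17 class II sets above the floor, 17.6% passed 2-fold toward the hairshaft and 82.4% were under 2-fold, a share near that of the array. The 3 sets past the limit belong to only 2 genes, so they are not 3 independent readings. The median of the 19 differences was -0.49, and that of the 17 above the floor -0.61, against 0.00 over all probe sets above the floor. By direction alone, 14 leaned to the hairshaft, 3 to the bulge and 2 had no difference because neither array was above the floor. The 14 are 82.4% of the 17 class II sets above the floor, while 47.9% of all probe sets above the floor leaned to the hairshaft. These 17 sets come from 9 genes and are not independent readings. By the brightest probe set of each gene, 7 of the 9 leaned to the hairshaft, against 46.5% of all genes above the floor. Over the alternative settings the number higher in the hairshaft ran from 12 to 15, and H2-Ab1 1425477_x_at, H2-Ea 1422892_s_at and Ciita 1421211_a_at changed direction in at least 1 of them. With 1 value per gene, from the probe set with the highest mean, 1 of 9 genes passed 2-fold toward the hairshaft and 0 toward the bulge, where all genes above the floor gave 4.91% and 11.5%.

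**Figure D1:**
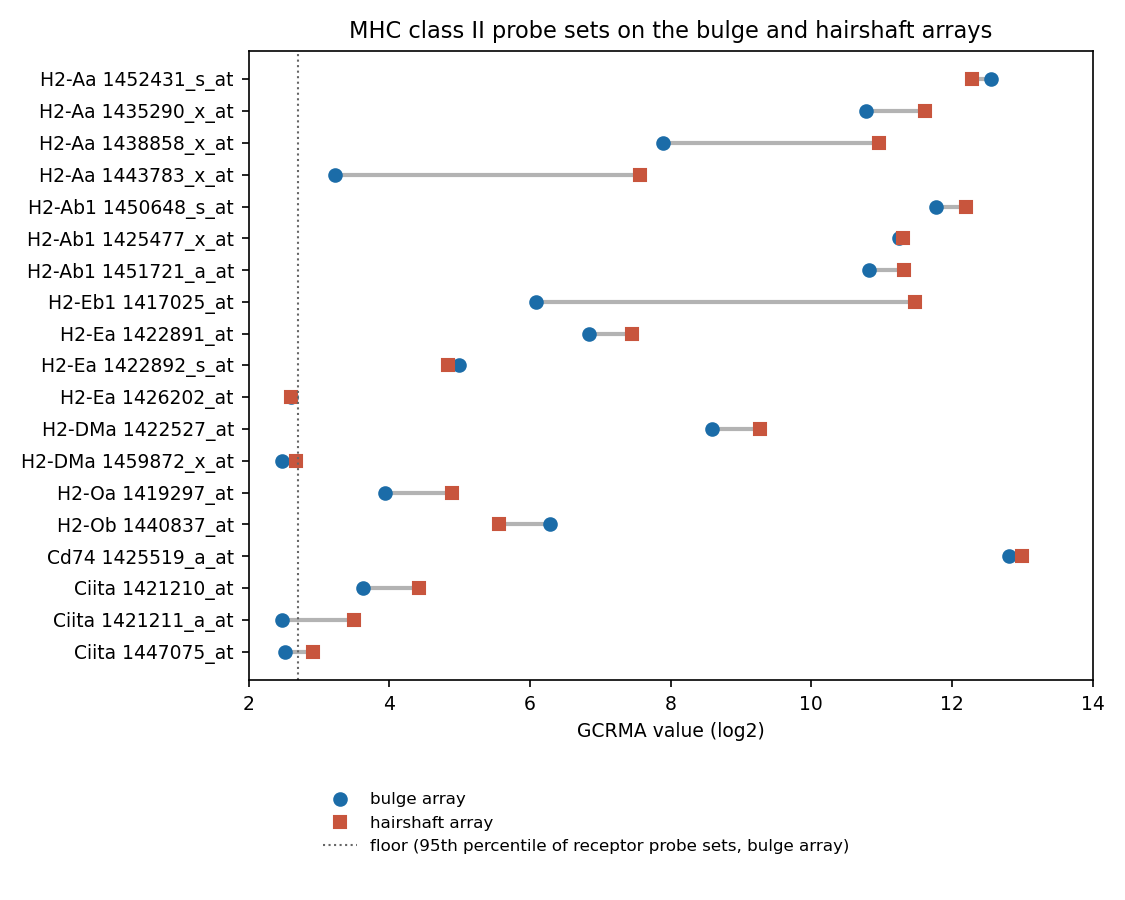
Log2 GCRMA value (horizontal axis) of each of the 19 class II probe sets on the bulge array (circles) and the hairshaft array (squares), with a line joining the 2 values and a dotted line at the bulge floor of 2.70. H2-Eb1 and the lower 2 of the H2-Aa probe sets have long lines, and the other lines are short.

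H2-Eb1 encodes the beta chain of the I-E molecule and was the member furthest apart. Its only probe set, 1417025_at, read 6.09 in the bulge and 11.47 in the hairshaft, so both values were well above the floor. The difference was -5.38, or 41.7-fold higher in the hairshaft. It was the 11th largest difference in this direction among all probe sets above the floor, and the 6th largest among 13296 genes. The 10 probe sets with a larger difference were all dim in the bulge, with 8 at or below the floor and the highest at 2.81. Only 2 of 26863 probe sets above the floor on both arrays differed more in this direction. Among probe sets with a mean of at least 8.78, that of H2-Eb1, the next largest difference belonged to H2-Aa, at -3.07, followed by the collagen chain genes Col3a1 at -2.77 and Col1a2 at -2.75. The value rests on this 1 probe set. Y-linked signal was on the hairshaft array alone, and the part of differences between the animals, in the sequence of this region included, in the values of H2-Eb1 and H2-Aa was not tested.

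H2-Aa encodes the alpha chain of I-A, the class II molecule with which C57BL/6 mice present peptides, since they lack I-E. The 4 probe sets of H2-Aa disagreed. The set 1452431_s_at read 12.56 for the bulge and 12.28 for the hairshaft, 1.21-fold toward the bulge. The set 1435290_x_at read 10.78 and 11.62, which is 1.79-fold higher in the hairshaft. In 1438858_x_at the values were 7.89 and 10.96, an 8.37-fold difference toward the hairshaft. In 1443783_x_at they were 3.23 and 7.56, a 20.2-fold difference in the same direction. The 3 sets higher in the hairshaft all carry the _x_at suffix, which marks probe sets with probes that can match other sequences, and the fourth carries _s_at, for probes shared by several transcripts. The 4 differences spanned 4.61 log2 units. Over the 6236 genes that had at least 2 probe sets above the floor, the median span was 0.53 and the 90th percentile 1.74, and 35 genes, H2-Aa included, had a span at least this wide. Of the 1111 genes with at least 4 such sets, 14 did. A single statement on H2-Aa therefore depends on the probe set read, and the reason for the disagreement was not tested.

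**Figure D2:**
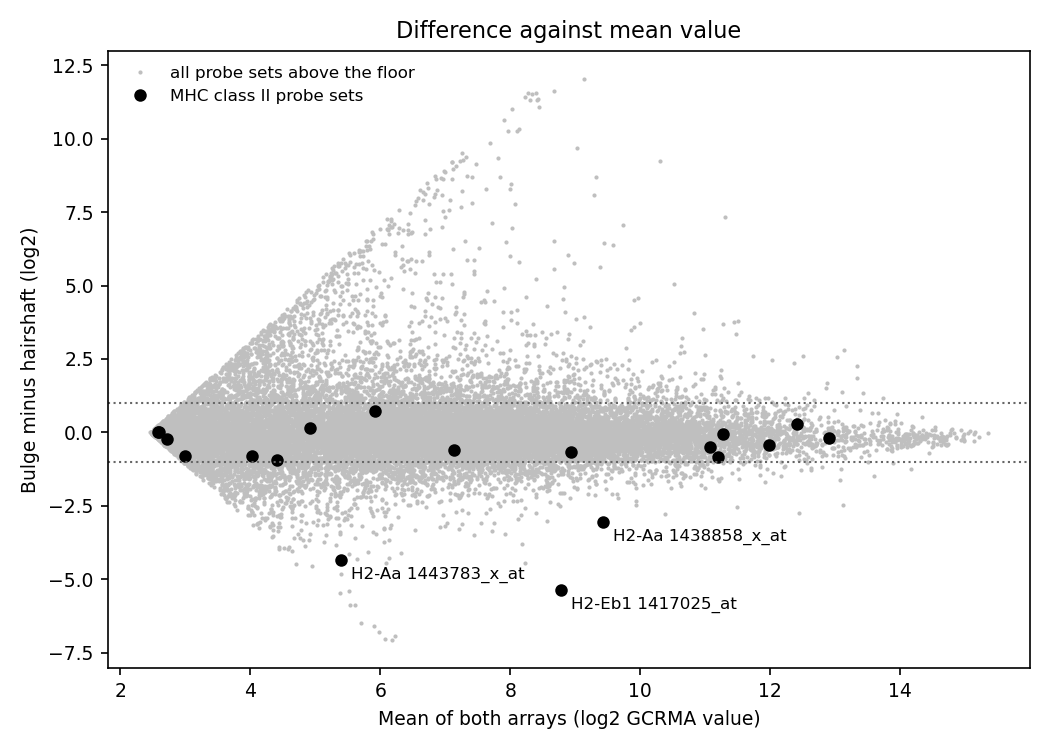
Difference between the arrays (bulge minus hairshaft, log2, vertical axis) against the mean of both (log2 GCRMA value, horizontal axis), for all 28555 probe sets above the floor (grey) and the 19 class II probe sets (black), with dotted lines at the 2-fold limits. H2-Eb1 1417025_at at -5.38 lies below the grey points of like mean, and H2-Aa 1438858_x_at at -3.07 and 1443783_x_at at -4.34 lie outside the limits while the other 16 lie within.

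The partner chains did not share these differences. H2-Ab1, the beta chain that pairs with H2-Aa, read 11.77 in the bulge and 12.20 in the hairshaft with 1450648_s_at, 10.82 and 11.31 with 1451721_a_at, and 11.24 and 11.30 with 1425477_x_at. Its folds were 1.35, 1.40 and 1.04 toward the hairshaft, the last turning to the bulge by 0.03 (log2) with the loess trend removed. The 3 sets of H2-Ab1 spanned 0.43, less than the median gene. H2-Ea would be the alpha partner of H2-Eb1, but RefSeq lists it in C57BL/6J as a transcribed pseudogene, and the strain is known to lack the I-E molecule for want of a working alpha chain. Its set 1422891_at nonetheless read above the floor on both arrays, at 6.83 (bulge) and 7.44 (hairshaft), 1.53-fold toward the hairshaft. The set 1422892_s_at read 4.99 and 4.84, and 1426202_at was at 2.60 on both, below the floor. None of the 3 sets of H2-Ea was 2-fold apart.

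Cd74, the invariant chain, read nearly the same on both arrays, at 12.81 (bulge) and 13.00 (hairshaft), a gap of 1.14-fold toward the hairshaft. Cd74 has no second probe set of its own here. H2-DMa, the alpha chain of the peptide exchanger, read 8.59 and 9.26 with 1422527_at, 1.60-fold higher in the hairshaft, and was not above the floor on either array with 1459872_x_at (2.48 and 2.67). The H2-DM beta chains H2-DMb1 and H2-DMb2 are near-identical copies, and the platform assigns 1418638_at and 1449580_s_at to both. These 2 sets read 7.04 and 7.36, and 8.26 and 8.70, or 1.25-fold and 1.36-fold toward the hairshaft, and cannot be assigned to either gene. For H2-DMb2, which is no member, 1419744_at gave 6.64 and 6.82, a 1.13-fold difference, whereas 1443686_at and 1443687_x_at gave 3.84-fold and 3.17-fold toward the hairshaft. As with H2-Aa, the probe sets of 1 gene gave different sizes.

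The 2 chains of H2-O, the restrainer of H2-DM, leaned in opposite directions, each by under 2-fold in the main setting. Such leanings are common even within a gene. Of the 6236 genes with at least 2 probe sets above the floor, 32.6% had sets in both directions. H2-Oa read 3.94 in the bulge against 4.89 in the hairshaft, a gap of 1.92-fold, which passed 2-fold with quantile normalization (log2 difference -1.08) and with the loess trend removed (-1.01). H2-Ob read 6.28 and 5.56 with 1440837_at, 1.65-fold higher in the bulge and the largest class II difference in that direction. The set 1422201_at, shared between H2-Ob and the noncoding gene Gm20506, was at 3.72 on both arrays. H2-Oa and H2-Ob carry the same motif pair in the promoter stretches printed above as H2-Eb1 and H2-Aa.

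Ciita, the coactivator, was dim on both arrays. Its set 1421210_at read 3.63 and 4.42, a gap of 1.73-fold toward the hairshaft. In 1421211_a_at the bulge value of 2.48 was below the floor and the hairshaft value was 3.50, a gap of at least 1.74-fold that passed 2-fold without a floor (-1.02). In 1447075_at the values were 2.52, below the floor, and 2.92, a gap of at least 1.17-fold. With a higher floor, the receptors' 99th percentile (4.22 on both arrays), the difference of 1421210_at shrank to -0.21.

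**Figure D3:**
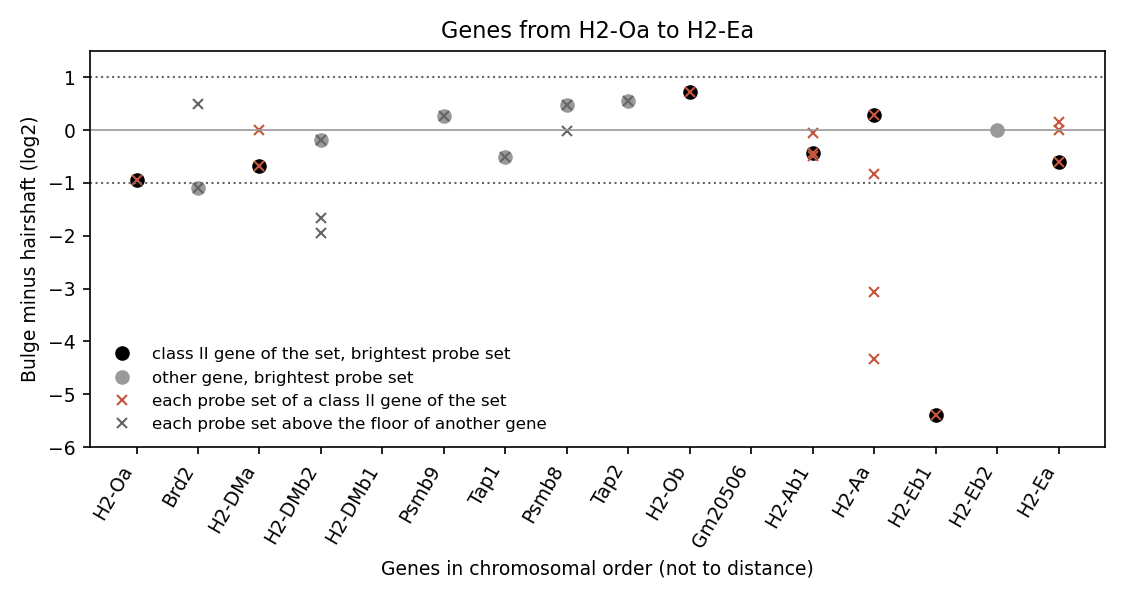
Difference between the arrays (bulge minus hairshaft, log2, vertical axis) for the 16 genes from H2-Oa to H2-Ea in their order on chromosome 17 (horizontal axis, order only), with circles for the brightest probe set of a gene, red crosses for each probe set of a class II member and grey crosses for each probe set above the floor of another gene. H2-Eb1 at -5.38 and the lower 2 crosses of H2-Aa stand below the limit of -1, as do 2 crosses of H2-DMb2 and 1 of Brd2, while H2-Ab1 and H2-Ea lie between -0.61 and 0.15 in all their sets.

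The other genes next to H2-Aa and H2-Eb1 in the same cluster were under 2-fold apart or below the floor, and 2 genes further along had probe sets past 2-fold. RefSeq places 16 genes from H2-Oa to H2-Ea, in which H2-Ab1, H2-Aa, H2-Eb1, H2-Eb2 and H2-Ea follow one another. H2-Eb2, the relative of H2-Eb1 next to it, was at 2.35 on both arrays, below the floor. Between H2-DMb1 and H2-Ob lie the class I genes Psmb9, Tap1, Psmb8 and Tap2, which make or transport peptides for class I molecules and differed by -0.52 to 0.55. The 6 neighbours above the floor that are no members had 10 probe sets above the floor, of which 3 passed 2-fold toward the hairshaft. They were the sets of H2-DMb2 at 3.84-fold and 3.17-fold and 1 set of the chromatin reader Brd2 (9.41 and 10.52, 2.15-fold), whose other set was 1.41-fold higher in the bulge. With the brightest probe set of each gene, 1 of 6 passed it, against 4.91% of all genes.

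Promoter factors of the class II module were above the floor on both arrays. By the brightest probe set, the 7 genes listed were all under 2-fold apart (median -0.40), as were 83.6% of all genes above the floor. With the loess trend removed or with quantile normalization, 1 of the 7 passed 2-fold. Over their 16 probe sets above the floor, 1 of Creb1 (2.45-fold) passed 2-fold, toward the hairshaft. Rfx5, a subunit of the RFX complex, read 7.08 and 7.48. Rfxank, another RFX subunit, was 1.86-fold and Nfyb, an NF-Y subunit, 1.83-fold higher in the hairshaft. Creb1, which binds the module's X2 box, was 1.69-fold higher in the hairshaft by its brightest set, and Nfya, the NF-Y subunit that contacts the CCAAT sequence, 1.54-fold higher in the bulge.

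Proteases and other lysosomal genes that prepare peptides and trim Cd74 came next. Of 12 genes, 11 were under 2-fold apart by the brightest probe set and 1 passed it toward the bulge, with a median of 0.04. Over all genes above the floor 83.6% were under 2-fold apart and 11.5% passed it toward the bulge, so these shares are near the background. Ctss, the cathepsin that makes the last cut in Cd74 in dendritic cells, read 10.86 in the bulge and 10.82 in the hairshaft. Ctsl, the cathepsin with that role in thymic epithelium, read 12.63 and 12.88 in its brightest set, and 4.64 and 2.79 in a dim one, 3.61-fold toward the bulge. Ifi30, a reductase of disulphide bonds in antigens, was 1.51-fold higher in the hairshaft, and Ctsd, an aspartic protease, 1.57-fold higher in the bulge. The gene past the limit was Ctsz, a carboxypeptidase, with 10.52 and 9.28 a gap of 2.36-fold toward the bulge (1.24 on the log2 scale, and 0.96 when its 3 probe sets were averaged).

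The 8 pathway lists held 66 genes above the floor. By the brightest probe set 5 of them passed 2-fold, 1 toward the hairshaft and 4 toward the bulge. Over all genes above the floor 4.91% passed it toward the hairshaft and 11.5% toward the bulge, so neither count exceeds the share of the array. The gene toward the hairshaft was in the list of class II turnover. Marchf1, the ligase that tags class II beta chains for removal from the surface in dendritic cells and B cells, read 2.97 (bulge) and 5.19 (hairshaft), a gap of 4.66-fold. Its difference under the 99th percentile floor was -0.98, under 2-fold. Another of its 3 probe sets read 2.91 and 3.70, a gap of 1.73-fold toward the hairshaft. The remaining set was not above the floor on either array. Marchf8, a relative of Marchf1, was 1.53-fold higher in the hairshaft. Sppl2a, the protease that clears the membrane stub of Cd74, was 1.64-fold higher in the hairshaft by its brightest set, but a dimmer set read 5.40 and 8.60, a gap of 9.19-fold, and the remaining set was 1.53-fold apart. Among 5 ligands and partners of Cd74, Mif, the cytokine that binds it at the surface, was 1.11-fold apart, Cd44 1.13-fold and Ddt, a relative of Mif, 1.84-fold higher in the bulge. The chemokine receptor Cxcr4 read 4.58 and 2.81, a gap of 3.42-fold toward the bulge, and Cxcr2 was near the floor on both arrays.

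Costimulatory genes, whose products T cells need beside the class II signal, were mostly dim. Over all genes above the floor, 83.6% were under 2-fold apart and 11.5% passed it toward the bulge. Of the 8 costimulatory genes above the floor, 6 were under 2-fold apart and 2 passed it toward the bulge. These are too few to make the split a result about the list. The 2 past the limit were Icosl, at 4.90 and 2.89, and Cd274, which encodes the inhibitory ligand PD-L1, at 4.69 and 3.20. Both, like Cxcr4, were under 2-fold with the 99th percentile floor (0.68 for Icosl, 0.48 for Cd274 and 0.37 for Cxcr4). Cd86 read 4.43 in the bulge and 4.49 in the hairshaft.

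Class I presentation and the interferon-gamma response, the main inducer of Ciita outside professional antigen-presenting cells, were set beside the class II genes. By the brightest probe set each of the 16 class I genes measured was under 2-fold apart, as were 83.6% of all genes above the floor. The median of the 16 was 0.02, and it was 0.15 with the loess trend removed. Of their 32 probe sets above the floor, 1, of the chaperone Canx, passed 2-fold, toward the bulge (2.01-fold). B2m, the light chain of class I molecules, read 14.30 in the bulge and 14.29 in the hairshaft. Nlrc5, the coactivator that serves class I genes as Ciita serves class II, was 1.46-fold higher in the hairshaft. The class I heavy chain genes are similar in sequence, so signal of H2-K1 and H2-D1 can be shared. The 14 interferon genes above the floor had a median of -0.01, and each was under 2-fold apart by the brightest set, beside the same 83.6%. Of their 20 probe sets, 1, of the kinase Jak1, passed 2-fold toward the hairshaft (2.12-fold). The transcription factor gene Irf1 read 7.95 and 7.81, and Ifng, Socs1 and Ido1 stayed below the floor on both arrays.

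**Figure D4:**
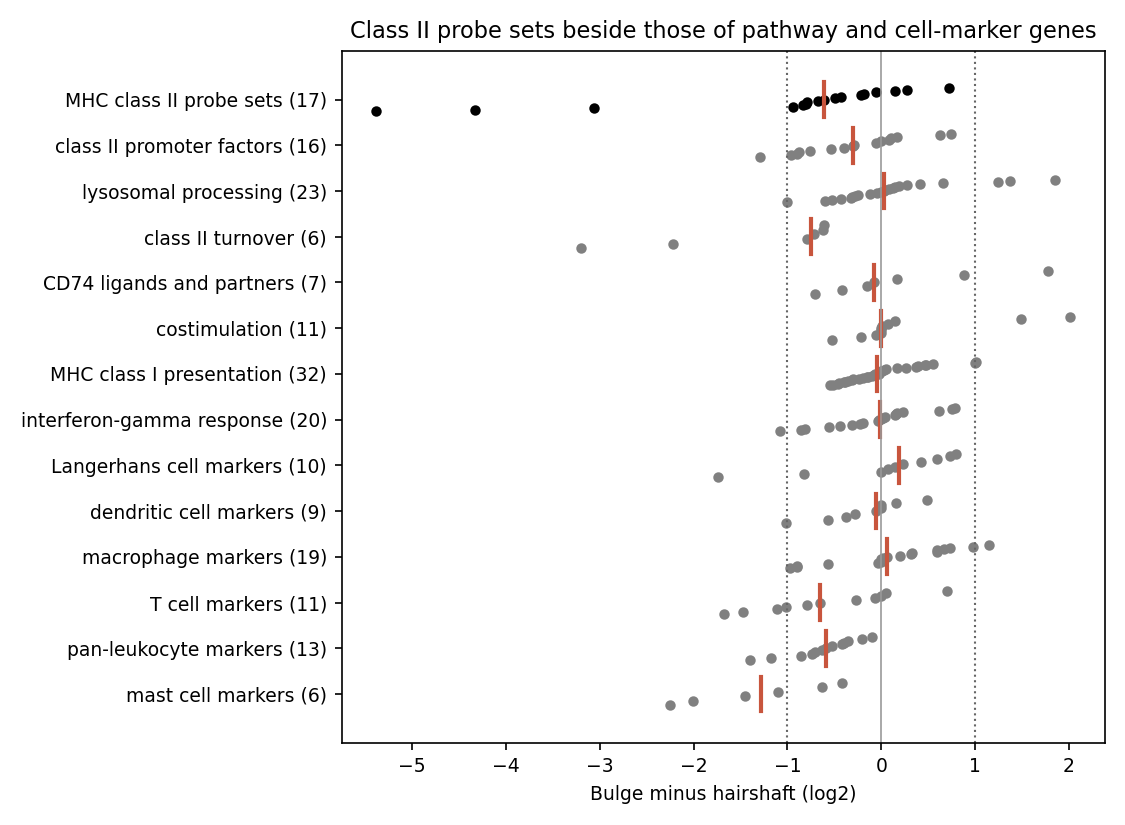
Difference between the arrays (bulge minus hairshaft, log2, horizontal axis) for the class II probe sets above the floor (black, 17) and for every probe set above the floor of the genes in 13 pathway and marker lists (grey, number of probe sets in brackets), with a red bar at each median and dotted lines at the 2-fold limits. The lowest grey point is a set of Sppl2a at -3.20, between H2-Aa 1443783_x_at at -4.34 and H2-Aa 1438858_x_at at -3.07, and the next are Cpa3, a mast cell gene, at -2.25 and Marchf1 at -2.22.

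Markers of leukocytes were set beside these values, both of types known to carry class II molecules and of others, such as T cells and mast cells. Fewer cells of a type and less RNA per cell cannot be told apart in dissected tissue. Pan-leukocyte markers were higher in the hairshaft in 8 of 8 genes, where 46.5% of all genes above the floor leaned that way. Each of the 8 was under 2-fold apart in the brightest set, and 2 of 13 probe sets, of Coro1a and Laptm5, passed it. Their median was -0.61, with summed linear signals of 2878 for the bulge and 4499 for the hairshaft. The direction of the 8 held in each of the alternative settings of floor, offset, trend, centring and normalization. Cd207, the langerin gene that marks Langerhans cells, read 9.01 and 9.84, a gap of 1.77-fold toward the hairshaft. The other Langerhans markers are shared with keratinocytes or lymphocytes, and the summed signal of the 5 was 8451 and 6618. Of these, Runx3, which Langerhans cells need, was 3.35-fold higher in the hairshaft, while Epcam was 1.74-fold, Cd24a 1.17-fold and Id2 1.11-fold higher in the bulge. Dendritic cell markers had 7 of 8 under 2-fold apart, near the 83.6% of all genes above the floor, and sums of 380 and 417. Cd209a was 2.02-fold higher in the hairshaft, and Xcr1 was below the floor on both arrays. Macrophage markers had 13 of 14 under 2-fold apart, beside the same 83.6%, and sums of 4897 and 4887. Of the 14, 9 leaned to the bulge, Mertk by 2.22-fold, and 3 to the hairshaft, with the bright Csf1r at 1.97-fold and Adgre1 at 1.48-fold. None of the 6 B cell markers measured was above the floor on either array. Of 8 T cell markers, 4 (Cd3d, Cd3e, Cd2 and Lat) passed 2-fold toward the hairshaft, against 4.91% of all genes, with sums of 337 and 628. The number was 3 with the 99th percentile floor and 2 with the offset of 16. Of 6 mast cell markers, 4 (Cpa3, Ms4a2, Cma1 and Tpsb2) did so, or 3 under either of these settings, with sums of 247 and 772. The part of these cells in the class II values was not tested.

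The 5 non-member genes with the largest difference toward the hairshaft, those most like H2-Eb1 by size of the difference, were Rpgrip1, Slc15a2, Eif2s3y, Ang and Uty. Rpgrip1, a gene of the photoreceptor cilium, was at least 132-fold higher, Slc15a2, a peptide transporter, 122-fold and Ang, a secreted ribonuclease, at least 97.3-fold. The Y-linked Eif2s3y was at least 110-fold and Uty at least 22.2-fold higher. The other probe sets of Rpgrip1 differed by -0.06 to 0.00 and those of Slc15a2 by 0.00, while those of Ang differed by -4.82 to -1.21. A difference of 0.00 can also stand for a probe set that was not above the floor on either array. Likeness here means only a large difference between 2 arrays.

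**Figure D5:**
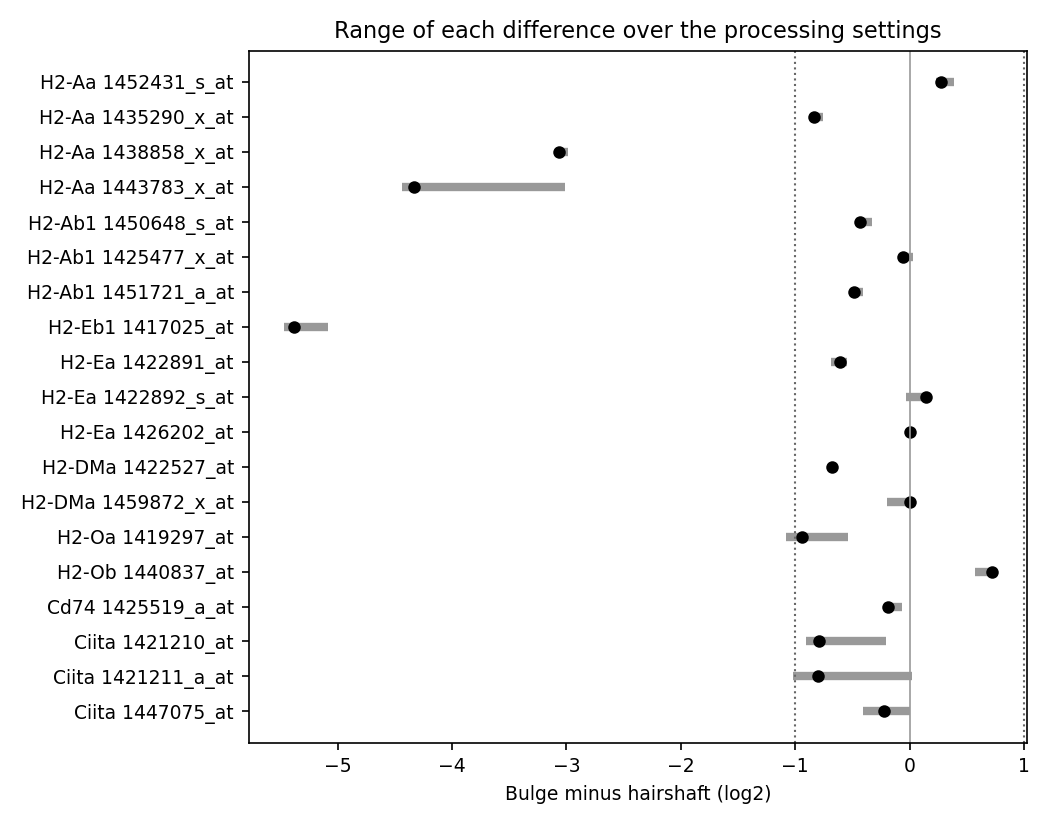
Difference between the arrays (bulge minus hairshaft, log2, horizontal axis) of each of the 19 class II probe sets, with the main value as a point and a grey bar from the lowest to the highest value over the settings of floor, offset, trend, centring and normalization. H2-Eb1 stays between -5.47 and -5.09, and the bars of H2-Aa 1443783_x_at and Ciita 1421211_a_at are the longest.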

How the data were processed

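Expression was measured on 1 microarray each for the bulge and the hairshaft. The authors deposited log2 values, 1 per probe set, made with GCRMA per the submitters' processing notes, whose version is not named there. No column was left unused (0 unmatched). The platform annotation gave 34958 of 45101 probe sets 1 symbol, 932 several and 9211 none here; 34754 of these matched RefSeq (GRCm38.p6) by Entrez identifier and took its symbol, while members were found by the platform's symbol. The 64 array controls were left out.

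The difference was bulge minus hairshaft. A value at or below the floor took the floor's value, such folds are written as "at least", and 2 values at or below it gave a difference of 0. For lists and counts per gene, the probe set with the highest mean was used, and counts over every probe set above the floor were added after seeing the data. Alternatives changed the floor, an offset, the loess trend of the difference on the mean, centring, quantile normalization and which probe sets were counted. With 1 array per group there were 0 residual degrees of freedom and no test. All members with every probe set are named. So are genes of the pathway and immune cell lists at least 2-fold apart, and up to 4 bright or defining genes per list. The bulge stem cell, keratin, muscle, adipocyte and endothelial lists are given mainly as counts or sums. The 5 non-member genes furthest toward the hairshaft are also named, passing over _x_at sets and predicted genes. Of the promoter, lysosomal, class I and interferon lists, the examples were picked for their role after their values were seen, as were the sex-linked genes. The members, the 8 pathway lists and the 13 marker lists were chosen with earlier results of these data known. Counting was tested on simulated data. The software was Python (3.11.15) with numpy 2.4.6, pandas 2.3.3, matplotlib 3.10.9 and, for loess, statsmodels 0.14.6.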

Additional observations from a re-analysis of the deposited data

How the results depend on the processing

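The 3 summary values (counts of class II probe sets at least 2-fold apart in each direction, and their median difference) were recomputed under 11 alternative settings and 2 more chosen after seeing the data. The count of 3 toward the hairshaft became 1 with only plain probe sets, 1 with the brightest probe set of each gene and 1 without _x_at probe sets, since both H2-Aa sets past the limit are _x_at; with each gene's probe sets averaged it was 2. It was 3 or 4 elsewhere, and the count toward the bulge was 0 in every setting. The median ran from -0.64 with only plain probe sets to -0.21 with the 99th percentile floor. None of the single probe sets at least 2-fold apart changed direction or fell under 2-fold. Of the 5 pathway genes 2-fold apart, each was under 2-fold in at least 1 setting. No paired analysis was possible because each group has 1 array, and leaving out a replicate was not possible. An array has no depth; with the 99th percentile floor H2-Aa 1443783_x_at was -3.34, Ciita 1421211_a_at 0.00 and H2-Oa -0.67.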
